A study of Mus musculus with 6 samples.

Results

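The mevalonate arm of cholesterol synthesis is the route from acetyl-CoA to squalene. Its members here are 9 enzyme genes picked by name (Acat2, Hmgcs1, Mvk, Pmvk, Mvd, Idi1, Fdps, Ggps1 and Fdft1), out of 33157 rows of the gene table, and all 9 passed the filter on low counts, which kept 13483 genes. The cells were group 3 innate lymphoid cells (ILC3s), lymphocytes that reside in the gut wall, sort-purified from wild-type mouse small intestine and profiled by bulk RNA sequencing. The gate took CD127+ cells high in CD90.2 and left out KLRG1+ and lineage-positive ones. Cultures of the IGF-1 group received insulin-like growth factor 1 (IGF-1, 200 ng/mL) together with recombinant mouse interferon-γ (IFN-γ, 20 ng/mL), and the control cultures received the same IFN-γ alone, each for 4 h, with 3 libraries per group. Every culture held IFN-γ, so the comparison shows what IGF-1 added to IFN-γ and not a response to IFN-γ itself. The sources name no strain, age or number of mice and do not say if replicates were separate animals or cultures, so the p-values reflect the variation among these 6 libraries alone, part of which may be technical.

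Cells make isoprenoid units from acetyl-CoA in the cytosol and join them into farnesyl diphosphate, which stands at a branch point. Squalene synthase commits it to sterols, while other enzymes use it for longer isoprenoids, protein prenylation, dolichol and coenzyme Q. Transcription of these enzymes is driven by SREBP-2, a membrane-bound factor released when sterols in the endoplasmic reticulum are low, and in lymphocytes growth signals through PI3K, AKT and mTORC1 are known to raise SREBP activity.

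With IGF-1, Idi1 rose 2.28-fold and was the single member of the 9 that passed the test over all genes (edgeR's quasi-likelihood test, Benjamini-Hochberg adjusted p = 0.0193). Among all genes tested, 0.230% passed in that direction and 0.267% in the other. By DESeq2, 4 members passed (Idi1, Hmgcs1, Fdps and Fdft1), all higher with IGF-1, against 1.39% of all genes in that direction. Hmgcs1, Fdps, Fdft1 and Ggps1 had every IGF-1 library above every control library without passing, Mvk, Pmvk and Mvd had groups that overlapped, and Acat2, at the head of the route, had every IGF-1 library below every control library. Groups that did not overlap were thus found for 5 members in the higher direction and 1 in the lower, against 8.81% and 9.17% of all genes tested. At an unadjusted p under 0.05 the members divided into 4 higher and 1 lower, against 5.58% and 6.24% of all genes tested. The log2 fold change of IGF-1 plus IFN-γ over IFN-γ alone was positive in 8 of 9 members with a median of 0.39, beside 6560 positive values among 13483 genes and a median of -0.01. Values below are TMM-normalised CPM (read counts relative to the scaled size of the library), errors of means are SDs over 3 libraries, and the error of a log2 fold change is its standard error (SE).

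**Figure D1:**
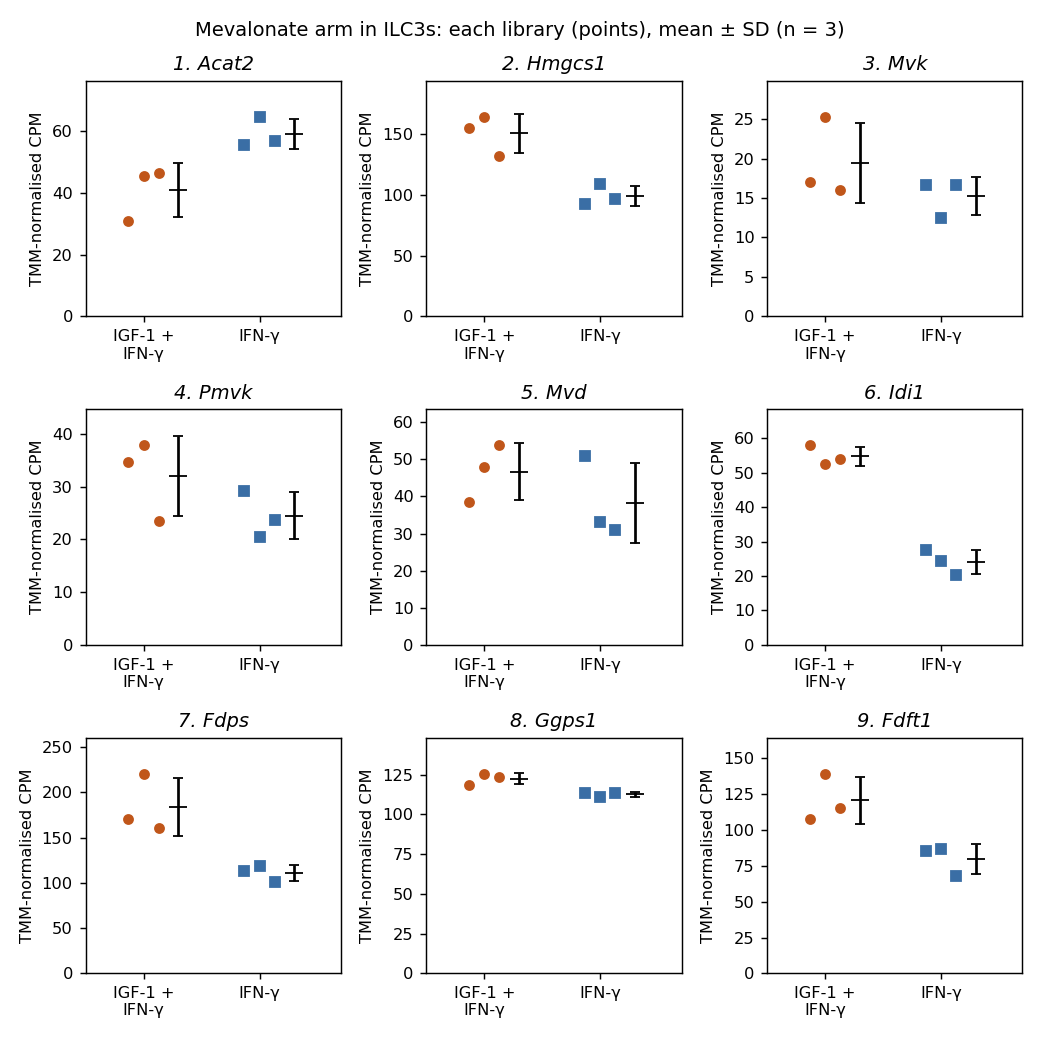
TMM-normalised CPM of the 9 enzymes in pathway order, with IGF-1 plus IFN-γ libraries as circles, IFN-γ libraries as squares, and the mean ± SD (n = 3) beside each group. Idi1 lies between 52.6 and 57.9 CPM with IGF-1 and between 20.3 and 27.4 CPM without it, and Acat2 is the one gene whose IGF-1 libraries all lie below the controls.

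The start-site windows of 4 members are shown because they span the range of responses: Idi1, which passed the test, Hmgcs1, which holds the one sterol regulatory element found, Mvk, whose groups overlapped, and Acat2, which lay on the other side. The sequences are from RefSeq (build GRCm38.p6), run 5′ to 3′ on the gene's strand from 250 bases before to 50 bases after the start site, and carry in capitals the matches to TCACNCCAC (the core of the sterol regulatory element bound by SREBP), CCAAT (the site of NF-Y) and GGGCGG (the GC box of Sp1), each searched on both strands.
Idi1 (chr13:8885356-8885655, plus strand): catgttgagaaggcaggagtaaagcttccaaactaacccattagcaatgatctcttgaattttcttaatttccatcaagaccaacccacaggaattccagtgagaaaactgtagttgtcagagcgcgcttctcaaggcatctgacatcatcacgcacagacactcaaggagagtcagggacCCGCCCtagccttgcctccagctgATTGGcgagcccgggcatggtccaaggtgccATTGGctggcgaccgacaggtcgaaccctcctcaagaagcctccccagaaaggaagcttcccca
Hmgcs1 (chr13:119690101-119690400, plus strand): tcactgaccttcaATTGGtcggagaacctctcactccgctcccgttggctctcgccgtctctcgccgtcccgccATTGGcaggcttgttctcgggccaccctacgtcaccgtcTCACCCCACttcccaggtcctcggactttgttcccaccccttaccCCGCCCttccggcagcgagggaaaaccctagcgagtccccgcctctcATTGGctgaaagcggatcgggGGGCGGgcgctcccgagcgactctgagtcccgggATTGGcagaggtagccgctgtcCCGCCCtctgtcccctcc
Mvk (chr5:114444019-114444318, plus strand): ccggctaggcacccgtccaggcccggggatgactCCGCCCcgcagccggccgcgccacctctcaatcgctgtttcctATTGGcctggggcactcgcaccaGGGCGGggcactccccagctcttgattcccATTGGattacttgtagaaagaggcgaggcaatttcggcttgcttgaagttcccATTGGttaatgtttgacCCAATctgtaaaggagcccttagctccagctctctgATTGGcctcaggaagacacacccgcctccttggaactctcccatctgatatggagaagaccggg
Acat2 (chr17:12960676-12960975, minus strand): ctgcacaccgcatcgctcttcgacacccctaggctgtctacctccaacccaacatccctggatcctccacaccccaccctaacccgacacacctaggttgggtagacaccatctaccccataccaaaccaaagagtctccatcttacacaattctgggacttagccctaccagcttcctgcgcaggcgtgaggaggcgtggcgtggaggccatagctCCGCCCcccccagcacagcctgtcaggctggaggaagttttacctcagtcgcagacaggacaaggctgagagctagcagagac

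Start-site windows were at hand for 7 of the 9 members, with 2 windows for Pmvk and none for Fdps and Fdft1. The sterol regulatory element matched in 1 of the 8 windows, that of Hmgcs1, at 137 to 129 bases before the start, and occurs in 1.24% of all 32851 windows of the same length. It matched in 0 of 12 windows, from 10 genes, of the later enzymes from squalene to cholesterol. A window without these exact letters may still hold a variant site or lie apart from one, which was not searched. CCAAT matched in 6 of the 8 windows, 5 times in Mvk, 4 in Hmgcs1, 3 in Ggps1, 2 each in Idi1 and Mvd and once in 1 of the Pmvk windows, against 37.4% of all windows, and Acat2 is the gene of the 7 in which these letters do not occur in the window. The GC box matched in 5 of the 8 windows, Acat2 with 1 match among them, against 35.7% of all windows. No match overlapped another. Mvk, Hmgcs1 and Ggps1 held more CCAAT matches than Idi1, Mvd held as many, and Pmvk and Acat2 held fewer. Of these genes Idi1 passed by DESeq2 and in the edgeR fit given above, and Hmgcs1 passed by DESeq2 but not in that edgeR fit. The relation of the matches to the changes was not tested. A match is a match of letters and was not tested for binding.

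The first step joins acetyl-CoA units into acetoacetyl-CoA, by the cytosolic thiolase Acat2 (not the cholesterol-esterifying enzyme that has shared this abbreviation). Acat2 stood at 30.8, 45.5 and 46.3 CPM in IGF-1 replicates 1, 2 and 3, against 55.4, 64.5 and 56.7 CPM in control replicates 1, 2 and 3. The groups were separated by 9.15 CPM, and IGF-1 replicate 1 was the lowest library. The log2 fold change was -0.53 (SE 0.18, 95% interval -0.92 to -0.14), a change of -30.6%, and did not pass (adjusted p = 0.256). With 1 library left out at a time, the log2 fold change ranged from -0.63 to -0.36. It was -0.36 without IGF-1 replicate 1 (edgeR unadjusted p = 0.0502). Of the 50-base stretches in Acat2 transcripts, 39.1% also occur in transcripts of Acat3, a neighbouring thiolase gene, and 11.2% in those of the chaperonin gene Tcp1, and no source used here says how reads shared by several genes were counted. Acat3 itself had 61 reads over the IGF-1 libraries and 56 over the controls. Tcp1 had 26881 reads over the IGF-1 libraries and 20763 over the controls. The mitochondrial thiolase Acat1, which serves ketone and isoleucine breakdown, was at 158 ± 11.1 CPM with IGF-1 and 144 ± 23.3 CPM without (log2 fold change 0.14, SE 0.14, adjusted p = 0.779).

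Hmgcs1, the cytosolic synthase that adds a further acetyl unit to make HMG-CoA, stood at 155, 164 and 132 CPM in the IGF-1 libraries, against 92.3, 109 and 96.8 CPM in the controls. The groups were separated by 23.6 CPM. Its log2 fold change was 0.60 (SE 0.13, 95% interval 0.31 to 0.89), 1.52-fold, and it fell short of the threshold over all genes (adjusted p = 0.0939). The window of Hmgcs1 shown above is the one with the sterol element. Acat2 and Hmgcs1 act one after the other, and the balance of their reads separated the groups. That separation follows from those of the 2 genes, which lay in opposite directions, and is not a further result. The ratio of Acat2 to Hmgcs1 reads was 0.198, 0.277 and 0.350 in IGF-1 libraries 1 to 3, against 0.601, 0.593 and 0.586 in the controls, whose mean was 0.593 with an SD of 0.007. A ratio within a library does not depend on scaling between libraries, but it shows unequal change and not which gene moved.

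The middle of the route consists of the kinases Mvk and Pmvk, which phosphorylate mevalonate in turn, and the decarboxylase Mvd, which yields isopentenyl diphosphate. Mvk stood at 17.0, 25.3 and 16.0 CPM with IGF-1, against 16.7, 12.5 and 16.6 CPM in the controls. For Mvk, IGF-1 replicate 2 stood well above all controls, replicate 1 just above them and replicate 3 among them. The log2 fold change of 0.35 (SE 0.24) became 0.11 when IGF-1 replicate 2 was left out, and 0.22 when control replicate 2 was. Pmvk stood at 34.7, 37.8 and 23.4 CPM with IGF-1, against 29.2, 20.4 and 23.7 CPM in the controls. For Pmvk, IGF-1 replicate 3 lay among the controls, and the log2 fold change of 0.39 (SE 0.22) became 0.25 when IGF-1 replicate 2 was left out, and 0.57 when replicate 3 of that group was. Mvd stood at 38.4, 47.8 and 53.8 CPM with IGF-1, against 50.8, 33.0 and 31.0 CPM in the controls. Control replicate 1 was second only to IGF-1 replicate 3 for Mvd, and the log2 fold change of 0.29 (SE 0.21) was 0.54 without that control, 0.19 when control replicate 2 was left out, 0.15 when control replicate 3 was, and 0.17 when IGF-1 replicate 3 was. None of the 3 passed (adjusted p = 0.625 for Mvk, 0.540 for Pmvk and 0.660 for Mvd). Their 95% intervals reached from 0.886-fold to 1.83-fold for Mvk, from 0.936-fold to 1.83-fold for Pmvk and from 0.882-fold to 1.68-fold for Mvd, so neither no change nor a change as large as that of Hmgcs1 lay outside what these libraries allow.

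Idi1 isomerises isopentenyl diphosphate to dimethylallyl diphosphate, the primer for chain growth. It stood at 57.9, 52.6 and 53.8 CPM in the IGF-1 libraries, against 27.4, 24.3 and 20.3 CPM in the controls. The gap between the groups, 25.2 CPM, was larger than the mean of the controls (24.0 ± 3.56 CPM), and the IGF-1 mean was 54.8 ± 2.77 CPM. The log2 fold change was 1.19 (SE 0.16, 95% interval 0.84 to 1.54), and Idi1 ranked 10 of 13483 genes by p-value. With 1 library left out at a time, the log2 fold change stayed between 1.08 and 1.30. The call was kept without control replicate 1 (adjusted p = 0.0306) and lost without any of the other 5 libraries (IGF-1 replicates 1, 2 and 3 and control replicates 2 and 3), with adjusted p from 0.0627 to 0.122. Of its 50-base stretches 25.3% occur in other annotated transcripts, mostly Gm13502 (17.7%). Its paralog Idi2 was sparse and uneven, at 1.76 ± 1.23 CPM with IGF-1 and 3.01 ± 2.09 CPM without (log2 fold change -0.77, SE 0.72, adjusted p = 0.749). The ratio of Idi1 reads to those of Mvd, the enzyme before it, was 1.51, 1.10 and 1.00 in the IGF-1 libraries. In the controls it was 0.540, 0.737 and 0.655, with no overlap. Idi1 separated the groups by itself, so the separation in this ratio is not a further result.

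**Figure D2:**
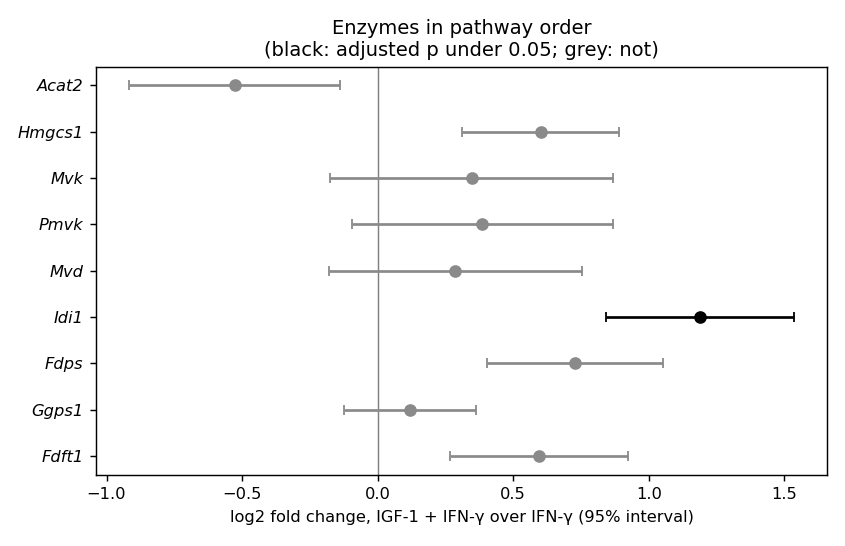
Log2 fold change of IGF-1 plus IFN-γ over IFN-γ for each enzyme in pathway order from top to bottom, with 95% intervals from edgeR, black where the adjusted p was under 0.05. Idi1 at 1.19 is the one black point, 5 of the 9 intervals leave out 0, and Acat2 at -0.53 is the one negative value.

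Fdps condenses the isoprenoid units into farnesyl diphosphate at the branch point. It stood at 170, 220 and 160 CPM in the IGF-1 libraries, against 113, 119 and 101 CPM in the controls. The groups were separated by 41.3 CPM, with IGF-1 replicate 2 well above the other libraries. The log2 fold change was 0.73 (SE 0.15, 95% interval 0.40 to 1.05), 1.66-fold, and Fdps did not pass over all genes (adjusted p = 0.0749). Transcripts of other genes, led by the overlapping model Gm43738 on the same strand (23.4%), hold 26.2% of its 50-base stretches. The ratio of Idi1 to Fdps reads, enzymes of adjacent steps, was 0.340, 0.239 and 0.336 in the IGF-1 libraries, against 0.243, 0.204 and 0.202 in the controls, and here the groups overlapped.

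Fdft1 and Ggps1 both draw on farnesyl diphosphate. Fdft1, squalene synthase, the first enzyme committed to sterols, stood at 107, 139 and 115 CPM in the IGF-1 libraries, against 85.3, 86.6 and 67.6 CPM in the controls. The groups were separated by 20.8 CPM, and the log2 fold change was 0.60 (SE 0.15, 95% interval 0.27 to 0.92), 1.51-fold, with an adjusted p of 0.138. Fdft1 shares 18.3% of its annotated exonic bases with Ctsb on the opposite strand, and the kit does not mark strand, so reads there cannot be told apart. Ctsb, the protease cathepsin B, had 409 ± 34.0 CPM with IGF-1 and 334 ± 111 CPM without (log2 fold change 0.29, SE 0.20, adjusted p = 0.627), and its part in the Fdft1 value was not tested.

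Ggps1, which extends farnesyl diphosphate to geranylgeranyl diphosphate for the prenylation of Rab and other small GTPases, stood at 119, 125 and 123 CPM in the IGF-1 libraries, against 114, 111 and 113 CPM in the controls. The groups did not overlap but lay 5.05 CPM apart. The log2 fold change was 0.12 (SE 0.11, 95% interval -0.12 to 0.36, adjusted p = 0.743). The upper end of the interval, 1.29-fold, lies below the estimates for Fdps and Fdft1. The interval of Fdft1 starts at 1.20-fold and overlaps that of Ggps1, and the interval of Fdps starts at 1.32-fold. Differences in response between these genes were not tested. Ggps1 was the member with the smallest spread, with a coefficient of variation of 2.79% in the IGF-1 libraries and 1.35% in the controls. Arid4b, a chromatin protein gene, overlaps 5.44% of its exonic bases on the opposite strand and stood at 212 ± 28.7 CPM with IGF-1 and 282 ± 57.6 CPM without (log2 fold change -0.41, SE 0.17, adjusted p = 0.362), with groups that overlapped. Its part in the Ggps1 value was not tested. The ratio of Fdft1 to Ggps1 reads was 0.904, 1.11 and 0.936 in the IGF-1 libraries, against 0.750, 0.780 and 0.596 in the controls. The ratio of Fdps to Ggps1 reads was 1.43, 1.76 and 1.30 in the IGF-1 libraries, against 0.992, 1.07 and 0.887 in the controls. In both ratios every IGF-1 library lay above every control. Fdps and Fdft1 separated the groups by themselves and Ggps1 varied little, so these separations are not a further result.

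**Figure D3:**
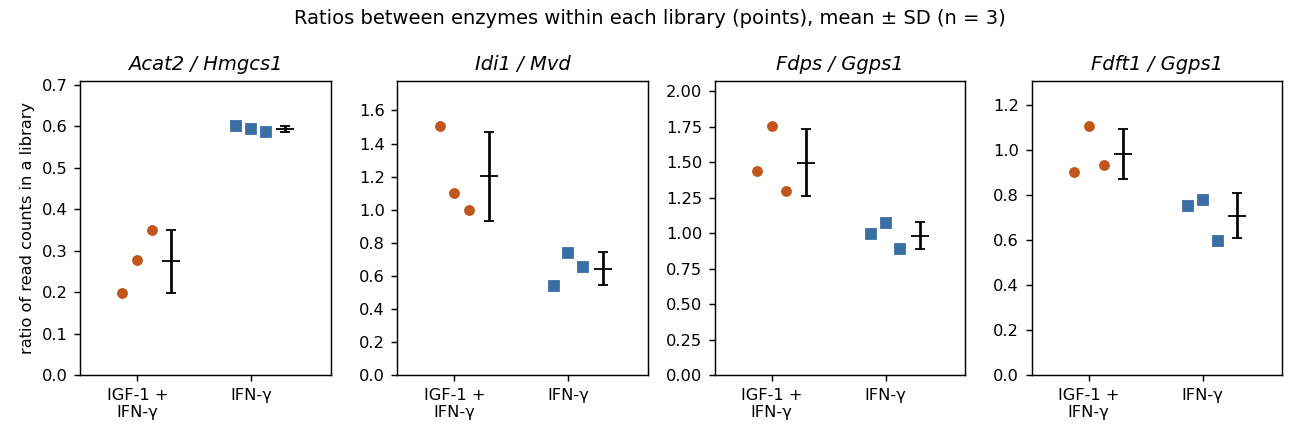
Ratios of read counts between members of the route within each library, with IGF-1 plus IFN-γ libraries as circles, IFN-γ libraries as squares and the mean ± SD (n = 3) beside each group. The 3 control libraries hold nearly one value for Acat2 over Hmgcs1 (0.586 to 0.601), and the groups do not overlap in the 4 ratios drawn, whereas they do in Idi1 over Fdps, which is not drawn. For Acat2 over Hmgcs1 the separation of the groups follows from the opposite separations of the single genes. In the other ratios drawn, the first-named gene separated the groups by itself, so none of the ratios is a further result.

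Levels can be set against each other between genes only per length, and for this CPM was divided by the annotated exonic length in kb (GENCODE M21, which is not the annotation the counts were made with). With IGF-1 the order was Fdps (43.6 ± 7.63 CPM per kb), Hmgcs1 (32.8 ± 3.58), Fdft1 (28.5 ± 3.87), Ggps1 (26.0 ± 0.73), Mvd (25.1 ± 4.16), Pmvk (18.7 ± 4.42), Acat2 (16.1 ± 3.44), Idi1 (15.6 ± 0.79) and Mvk (7.26 ± 1.90). Libraries of neighbouring genes in this order overlapped, except that Fdps lay above Hmgcs1 and Idi1 above Mvk. In the controls the order was Fdps (26.3 ± 2.22 CPM per kb), Ggps1 (23.9 ± 0.32), Acat2 (23.1 ± 1.93), Hmgcs1 (21.6 ± 1.85), Mvd (20.6 ± 5.85), Fdft1 (18.9 ± 2.51), Pmvk (14.3 ± 2.59), Idi1 (6.85 ± 1.02) and Mvk (5.70 ± 0.90). There, the single pair of neighbours that did not overlap was Pmvk above Idi1. Acat2 thus had rank 7 of 9 per length with IGF-1 and rank 3 of 9 in the controls, and Idi1 lay clear of Mvk, the lowest member, with IGF-1 and beside it in the controls.

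Together the 9 genes took 731, 858 and 725 CPM in IGF-1 libraries 1 to 3, against 584, 580 and 527 CPM in the controls, a mean 36.8% higher. As a share of all counts this was 0.0724% to 0.0818% with IGF-1, against 0.0541% to 0.0596%. Within the IGF-1 group, replicate 2 was above the group's mean for 8 of the 9 members and the highest library for 6 (Hmgcs1, Mvk, Pmvk, Fdps, Ggps1 and Fdft1). Within the controls, replicate 1 was the highest library for 5 members and replicate 3 for 0.

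**Figure D4:**
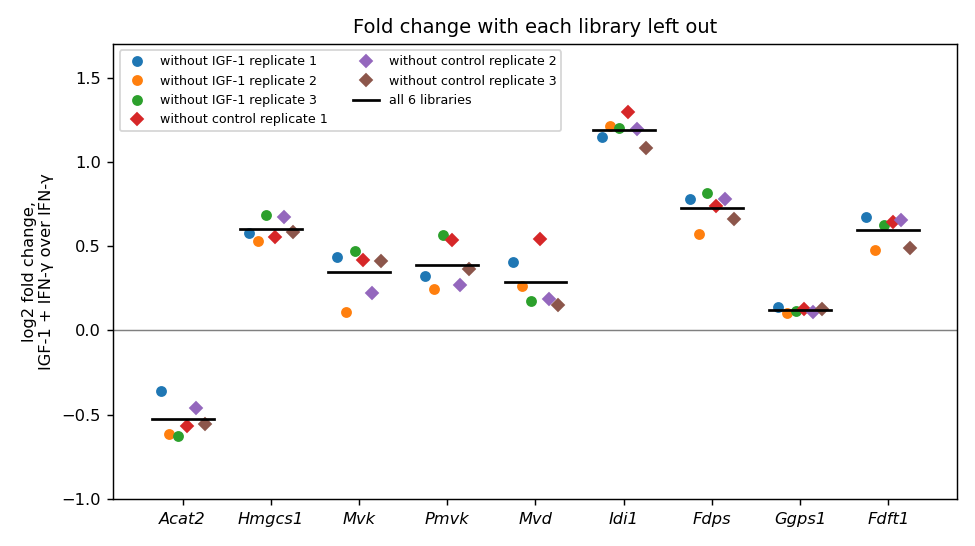
Log2 fold change of each member with 1 of the 6 libraries left out (circles: an IGF-1 library, diamonds: a control library), and with all 6 (black lines). Signs hold for all 9 members in these fits. Mvk ranges from 0.11 to 0.47 and Mvd from 0.15 to 0.54, while Idi1 stays between 1.08 and 1.30.

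The route continues from squalene to cholesterol, and there all 12 enzymes had positive log2 fold changes, with a median of 0.62. Groups did not overlap, with IGF-1 higher, for 8 of the 12, against 8.81% of all genes tested. By DESeq2 6 passed, against 1.39% of all genes in that direction, and by edgeR 1 gene passed, against 0.230%. Msmo1, the sterol C4-methyl oxidase, was that gene (292 ± 18.0 CPM with IGF-1 and 190 ± 4.95 CPM without, log2 fold change 0.62, SE 0.11, adjusted p = 0.0461). Sc5d, a sterol desaturase (log2 fold change 0.63, SE 0.14, adjusted p = 0.0969), and Sqle, squalene epoxidase, which follows Fdft1 (0.64, SE 0.15, adjusted p = 0.118), had the next smallest p. The sizes for Hmgcs1, Fdps and Fdft1 (0.60, 0.73 and 0.60) thus lay near this median, Idi1 above it and Acat2, Ggps1, Mvk, Pmvk and Mvd below it.

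The genes around the route had medians near that of all genes. In the next 3 lists 0 genes passed by edgeR, by DESeq2 or by limma-voom. Of the 3 genes that supply cytosolic acetyl-CoA, 0 had an unadjusted p under 0.05: the citrate lyase Acly had a log2 fold change of 0.15 (SE 0.13, adjusted p = 0.716), the citrate carrier Slc25a1 0.16 (SE 0.15, adjusted p = 0.743) and the acetyl-CoA synthetase Acss2 -0.18 (SE 0.26, adjusted p = 0.853). Of 10 genes of SREBP processing and sterol sensing 1 had an unadjusted p under 0.05 and was higher with IGF-1, against 5.58% of all genes tested, with 6 positive values and a median of 0.02. That gene was Insig1, which retains SREBP in the endoplasmic reticulum and is itself an SREBP target (28.0 ± 8.92 CPM with IGF-1 and 17.8 ± 4.67 CPM without, log2 fold change 0.66, SE 0.27, adjusted p = 0.362), and the next smallest p belonged to the escort protein Scap (-0.29, SE 0.15, adjusted p = 0.474) and Srebf1 (-0.24, SE 0.14, adjusted p = 0.547). Of 13 enzymes that use isoprenoids downstream 0 had an unadjusted p under 0.05, with 7 positive values and a median of 0.04. The smallest p there belonged to the Rab prenyltransferase subunit Rabggta (-0.31, SE 0.14, adjusted p = 0.424), Pdss1 of coenzyme Q synthesis (0.58, SE 0.32, adjusted p = 0.518) and Coq2 of the same pathway (-0.28, SE 0.16, adjusted p = 0.568).

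**Figure D5:**
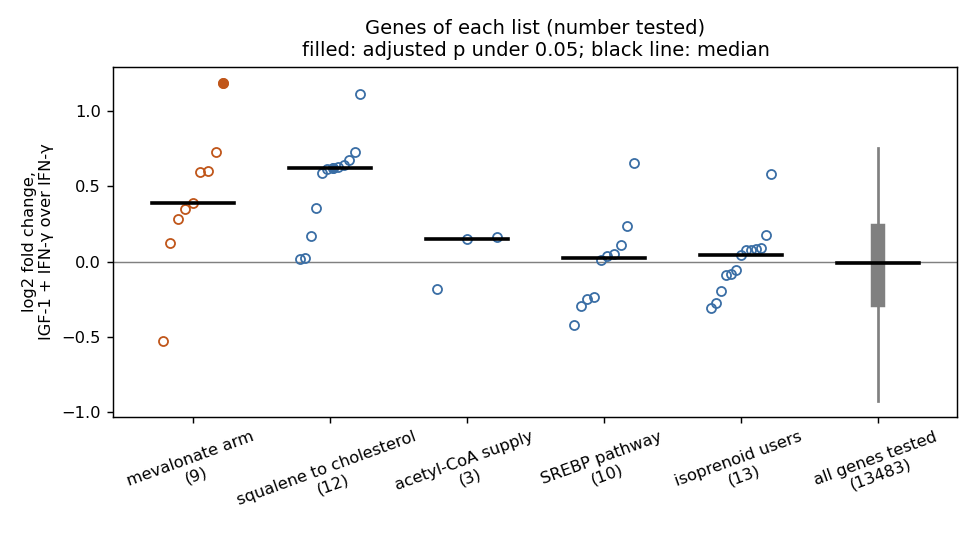
Log2 fold change of IGF-1 plus IFN-γ over IFN-γ for the tested genes of 5 lists (points, filled where the adjusted p was under 0.05, black line at the median), and for all 13483 genes tested (thick bar: 25th to 75th percentile, thin line: 5th to 95th percentile). The mevalonate arm (median 0.39) and the enzymes from squalene to cholesterol (0.62) lie above the other lists, whose medians range from 0.02 to 0.15.

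Ranked by the distance between centred log2 CPM profiles over the 6 libraries, the genes outside the route nearest to the mean profile of the 9 members were Psat1, an enzyme of serine synthesis (root mean square distance 0.03 log2 units), Ttll1, a tubulin-modifying ligase (0.04), Alg2, a mannosyltransferase of N-glycan assembly (0.05), the tubulin Tuba1b (0.05) and Abhd11 (0.05), out of 8556 genes with at least 10 CPM and a median distance of 0.29. None of these 5 passed the test (adjusted p from 0.261 to 0.492). Psat1 stood at 16.6, 20.7 and 16.6 CPM in the IGF-1 libraries, against 15.0, 13.7 and 12.6 CPM in the controls. Among the members themselves, Fdft1 lay nearest to the mean profile (0.13) and Acat2 (0.51) and Idi1 (0.41) farthest from it.

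Total counts were 32573713 to 39206449 per library. The ILC3 markers were present in both groups, among them Il7r (417 ± 48.7 CPM with IGF-1 and 458 ± 21.5 CPM without) and Kit (657 ± 26.5 and 690 ± 79.8 CPM), and summed to 5144 to 5615 CPM with IGF-1 and 4667 to 5026 CPM without. Summed epithelial markers were 15.0 to 22.2 CPM with IGF-1 and 34.3 to 48.6 CPM in the controls. Nearly all of that was Epcam (17.6 ± 3.28 and 38.6 ± 6.97 CPM, adjusted p = 0.0442), while Krt8, Krt18, Krt20, Vil1, Fabp2, Cdh1 and Apoa1 averaged under 1 CPM in each group. Genes listed as natural killer and ILC1 markers summed to 105 to 128 CPM with IGF-1 and 65.2 to 78.3 CPM without, mostly Ncr1 (71.5 ± 6.62 and 28.2 ± 1.09 CPM, adjusted p = 0.00903) and Klrb1c (30.7 ± 4.66 and 38.2 ± 4.89 CPM), while Eomes and Klra8 were at 0. Groups did not overlap for Ncr1 and Prf1 (5.38 ± 1.36 and 2.02 ± 0.57 CPM, adjusted p = 0.204), and overlapped for Klrb1c, Gzma and Gzmb. The name of the list does not show which cells these reads came from. B cell markers summed to 28.0 to 35.7 CPM with IGF-1 and 17.7 to 555 CPM in the controls, with Ms4a1 at 0. Control replicate 3 held 519 CPM of Jchain, a plasma cell gene at 0.10 to 0.21 CPM in the other 5 libraries, and without that library Idi1 had a log2 fold change of 1.08, Fdps of 0.66, Hmgcs1 of 0.58, Fdft1 of 0.49 and Acat2 of -0.55. Proliferation genes summed to 182 to 196 CPM with IGF-1 and 162 to 201 CPM without, most of it Pcna. Of that list 6 of 7 members had positive log2 fold changes and 0 passed, and the groups did not overlap for Birc5 (3.73 ± 0.13 CPM with IGF-1 and 1.75 ± 0.97 CPM without, adjusted p = 0.441) and Cdk1 (3.07 ± 1.22 and 1.54 ± 0.32 CPM, adjusted p = 0.514). Groups did not overlap, with IGF-1 higher, for 8.81% of all genes tested. Summed T cell, ILC2, myeloid and fibroblast markers had group ranges that overlapped. With IGF-1 these sums were 36.3 to 47.1, 12.5 to 16.6, 3.90 to 9.54 and 1.93 to 2.73 CPM. In the controls they were 42.7 to 50.8, 10.3 to 16.9, 3.73 to 4.22 and 0.08 to 3.71 CPM. Among the T cell genes, Cd4 alone had groups that did not overlap (23.1 ± 4.23 CPM with IGF-1 and 33.3 ± 2.73 CPM without, adjusted p = 0.286). Groups that did not overlap, with IGF-1 lower, were found for 9.17% of all genes tested. Of the 4 T cell genes tested, 2 had positive log2 fold changes and 2 negative. The part of other cells in the members' values was not tested. In bulk samples, fewer cells that express a gene and less of its RNA per cell cannot be told apart.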

How the data were processed

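The deposited values are raw read counts per gene symbol, 1 column per library, made by the authors from SMART-Seq HT libraries of lysed cells, per the labels' protocols. This kit copies whole transcripts without recording their strand. The submitters' processing notes name build GRCm39 and the tools featureCounts 1.5.3, SAMtools 1.15.1, HISAT2 2.2.1 and fastp 0.23.2. What each did, and the annotation, strand and multi-mapping settings, is not given in the sources used here.

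Libraries were grouped by title. From the counts, genes were kept by filterByExpr (minimum count 10, minimum total 15), which removed 0.0806% of counts, and tested on the whole table with edgeR 4.0.16 in R 4.3.3 (TMM, glmQLFit, glmQLFTest, group as the only term, Benjamini-Hochberg at 0.05). The SE is the log2 fold change divided by the square root of F, and intervals (95%) use the moderated degrees of freedom. An exact permutation test of 3 libraries against 3 cannot go below p = 0.1, so none is given. Profiles used log2(CPM + 0.5). The pipeline was tested on simulated counts. All 9 members are named. From each other list, genes past the threshold and the 3 with the smallest p are named, with related isozymes and overlapping genes. The values of some listed genes are not reported here. Members and lists were chosen with earlier results of these data known. Libraries of a group differed by far more than sampling noise (chi-square per degree of freedom 37.0 to 82.8). Reads carry no molecular identifiers, so they are not counts of independent molecules. Exonic lengths, overlaps and shared 50-base stretches come from GENCODE M21 (another build), and start-site windows from RefSeq; coordinates given are of the RefSeq table's build. Alternatives were scaling by library size, upper quartile or RLE, DESeq2 1.42.0, limma-voom (limma 3.58.1), other filters and thresholds, a replicate block, and each library left out.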

Additional observations from a re-analysis of the deposited data

How the results depend on the processing

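All 9 members kept their sign in all 14 alternative fits, and 111 of 126 single values kept their side of the threshold. The scalings RLE, upper quartile and library size each left 1 member called (Idi1) and a members' median of 0.35 to 0.40. More members passed with DESeq2 (4 members, 427 genes in all), without a filter on low counts (4, 429 genes), with at least 10 CPM in 3 libraries (3, 178 genes), with limma-voom (2, 96 genes) and at an adjusted p of 0.1 (3, 144 genes). The members added were among Fdps, Hmgcs1 and Fdft1, and at an adjusted p of 0.01 the counts were 0 members and 2 genes. Against the 67 genes called with all libraries, leaving out 1 library left 0 to 1 members and 0 to 55 genes (4 to 7 members at an unadjusted p under 0.05, and 1233 genes at that level without IGF-1 replicate 1, where 0 passed), and a members' median of 0.26 to 0.57 (0.57 without IGF-1 replicate 3 and 0.54 without control replicate 1). With the replicate number as a block 0 members (Idi1 adjusted p = 0.0612, 5 members at an unadjusted p under 0.05) and 8 genes were called. Same-numbered libraries deviated together with correlations of -0.23, -0.11 and 0.20 over 8565 genes. Of the IGF-1 libraries, replicate 3 alone correlated best with the control of its own number. With 3 libraries per group these values cannot show whether the libraries were paired, and the sources do not say, so the fits with and without the block are both given. The cause of the differences between tools was not tested.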
